A study of Homo sapiens with 4 samples.

Results

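The Wnt ligands, receptors and modulators of HEK293T cells were followed as 1 gene family in RNA-Seq libraries of WT cells and of cells that lack HELZ. Members were taken by gene symbol from a list drawn up with earlier results of these data known: the Wnt, R-spondin, secreted Frizzled-related and Dickkopf genes, the Frizzled, LRP5/6 and LGR4 to LGR6 receptors, the ubiquitin ligases RNF43 and ZNRF3, the Dishevelled and Axin genes, and the TCF/LEF factors. Of 27011 genes in the count table, 57 were members, and 29 of these were among the 10978 genes tested. HEK293T is a human embryonic kidney line transformed with adenoviral DNA and carrying the SV40 large T antigen. WT was the unedited line, and Helz-null cells were the same line after Cas9 editing with a guide RNA against helz that left a deletion shifting the reading frame. Both were otherwise untreated and were represented by 2 libraries each, described as biological replicates, of total RNA from cells plated a day before harvest. A single Helz-null line is described, so the loss of HELZ and anything else that separates that line from its parent cannot be told apart.

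Wnt ligands are secreted, lipid-modified proteins that bridge a Frizzled receptor and an LRP5 or LRP6 co-receptor. Receptor engagement recruits Dishevelled and Axin to the membrane and takes apart the complex that otherwise marks beta-catenin for degradation, and beta-catenin then acts with TCF/LEF factors on target genes, AXIN2 among them. Secreted Frizzled-related and Dickkopf proteins intercept ligand or co-receptor, whereas RNF43 and ZNRF3 remove Frizzled receptors from the cell surface unless R-spondins, bound to an LGR receptor, draw the ligases away. HELZ is a putative helicase that binds the CCR4-NOT deadenylase complex, a factor of mRNA decay.

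The edited gene checked the labels. HELZ (chr17:65066560-65242105, minus strand, GRCh37) stood at 7.06 and 7.35 FPKM (counts scaled to library size and to gene width, computed here after TMM scaling) in WT 1 and WT 2 and at 2.62 and 2.68 FPKM in Helz-null 1 and Helz-null 2. Its log2FC, given throughout as Helz-null over WT with its standard error, was -1.44 ± 0.042 (edgeR adjusted p = 2.1e-27). The libraries held 41745401 to 70464140 counts. All 6 HEK293T markers were detected, but they were not level between the groups. The neurofilament gene NEFM rose (log2FC 0.89 ± 0.029) and the keratin gene KRT8 fell (log2FC -0.98 ± 0.070). Of 6 markers of other cell types the muscle gene DES reached at most 21 counts in a library and the liver, leukocyte, endothelial and squamous markers at most 6. In bulk RNA, fewer cells that express a gene and less of its RNA per cell cannot be told apart.

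Of the 29 tested members, 12 passed the study's FDR limit of 0.005, which is 41.4% beside 29.4% of all tested genes. Up-regulated were 9 members (31.0%, beside 13.9% of all tested genes), namely SFRP1, TCF7, AXIN2, LGR4, FZD2, FZD4, FZD7, LRP5 and DVL2. Down-regulated were 3 members (10.3%, beside 15.5% of all tested genes), namely RNF43, LRP6 and WNT5A. The median log2FC of the tested members was 0.11, beside -0.00091 over all tested genes. It was 0.045 over the genes kept by filterByExpr, 0.052 over all genes with at least 1 count, 0.069 after a correction for GC content and 0.062 without Helz-null 2. The WT and Helz-null values did not overlap in 22 of the 29 members (75.9%, beside 70.6% of all tested genes). The changes were mostly small: 10 of the 12 called members had an absolute log2FC of at most 0.4, and RNF43 alone changed by more than 2-fold. The median absolute log2FC was 0.25 over the called members and 0.25 over all 3225 called genes.

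The count of up-regulated members rested in part on single libraries. Without WT 1 it was 5, without Helz-null 2 it was 5, without Helz-null 1 it was 6, of which 5 were among the 9 and the other was TCF7L1, and DESeq2 called 5. Over all tested genes the same fits called 1348, 1027, 1059 and 1102 genes up, beside 1524. SFRP1, TCF7, AXIN2 and LGR4 among the up-regulated members, and LRP6 and RNF43 among the down-regulated ones, were called in every alternative that tested them.

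Among the 19 Wnt ligands, 5 were tested and 1, WNT5A, changed (20%, beside 29.4% of all tested genes). WNT5A, a ligand best known for signalling without beta-catenin, was the most abundant ligand. It stood at 7.05 and 7.43 FPKM in WT 1 and WT 2 and at 6.40 and 6.27 FPKM in Helz-null 1 and Helz-null 2. Both Helz-null values lay below both WT values, and the difference was small (log2FC -0.19 ± 0.050, edgeR adjusted p = 0.0018). The call was lost without WT 2 and without either Helz-null library, and also with DESeq2 or with library totals as the only scaling, with log2FC values from -0.23 to -0.15 over the alternatives with a test. WNT5A (chr3:55499743-55524567, minus strand, GRCh37) also lay among genes that were lower as a group: 19 of the 20 nearest tested genes had a log2FC below 0, with a median of -0.29, and the part of this in the WNT5A value was not tested. After subtraction of that median the WNT5A value was 0.10.

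The other tested ligands passed no threshold. WNT10B, the most abundant of them, stood at 3.84 and 3.61 FPKM in WT and at 3.75 and 3.84 FPKM in Helz-null cells, so that the groups overlapped (log2FC 0.025 ± 0.099). WNT11 had the largest log2FC of the tested ligands without being called: 2.09 and 2.45 FPKM in WT and 3.19 and 2.67 FPKM in Helz-null cells, without overlap (log2FC 0.37 ± 0.14, edgeR adjusted p = 0.026). The groups overlapped for WNT3 (log2FC -0.12 ± 0.12) and WNT5B (log2FC 0.14 ± 0.11). Summed over all 19 ligands, the level was 21.8 and 22.0 FPKM in WT and 21.2 and 21.9 FPKM in Helz-null libraries.

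The other 14 ligands were outside the tested list. WNT1 had 0 counts in every library, and a count of 0 allows up to 3 counts per library, which is between 0.0426 and 0.0719 CPM. WNT10A, WNT7A and WNT8A reached at most 3 counts and WNT16 at most 8. WNT3A, the archetypal ligand of the beta-catenin branch, had 302 and 176 counts in WT and 134 and 233 counts in Helz-null libraries, which per length is 1.58 and 1.41 FPKM against 1.07 and 1.10 FPKM. The groups did not overlap, and in the fit over the 16087 genes kept by edgeR's filterByExpr, in which 21.4% were called, its log2FC was -0.47 ± 0.15 (edgeR adjusted p = 0.011). All 20 nearest tested genes of WNT3A (chr1:228194699-228248972, plus strand, GRCh37) had a log2FC below 0, from -0.98 to -0.41 with a median of -0.68, and their part in the WNT3A value was not tested. WNT9A, which lies beside it with the same median, overlapped between the groups (log2FC 0.062 ± 0.32 in the filterByExpr fit). WNT2B ranged from 72 to 162 counts, WNT8B from 38 to 78, WNT7B from 22 to 56, WNT9A from 25 to 55 and WNT6 from 13 to 39 over the 4 libraries. WNT4 reached 21 counts, WNT9B 13 and WNT2 12.

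No R-spondin was in the tested list. RSPO4 had the highest count in a single library, 31, followed by RSPO2 with 29, RSPO1 with 14 and RSPO3 with 12. Summed, these ligands of the LGR receptors stood at 0.372 and 0.383 FPKM in WT and at 0.235 and 0.272 FPKM in Helz-null libraries, and none of the 3 that filterByExpr kept was called there.

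The secreted antagonists held the largest rise. SFRP1, a soluble protein with a Frizzled-like ligand-binding domain, stood at 2.45 and 2.42 FPKM in WT 1 and WT 2 and at 4.43 and 4.72 FPKM in Helz-null 1 and Helz-null 2, which is 2.43 ± 0.020 and 4.57 ± 0.21 FPKM (SD, n = 2). Both Helz-null libraries stood far above both WT libraries (log2FC 0.91 ± 0.078, edgeR adjusted p = 1.1e-12), and SFRP1 was number 27 by log2FC among the 1524 up-regulated genes. Over the alternatives with a test its log2FC ran from 0.86 to 0.96. SFRP1 (chr8:41119481-41166992, minus strand, GRCh37) stood alone in its region, where the 20 nearest tested genes had log2FC values from -0.20 to 0.23 with a median of -0.0025. Of its relatives, SFRP5 had 15 to 55 counts, SFRP4 had 7 to 18, and SFRP2 had at most 2, and filterByExpr called neither of the first pair.

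The 4 Dickkopf genes encode secreted proteins, of which DKK1 is the classical LRP5/6 antagonist, and all 4 were below the tested range. DKK1 had 128 and 91 counts in WT and 105 and 134 counts in Helz-null libraries, so that the groups overlapped (log2FC 0.045 ± 0.20 in the filterByExpr fit). DKK3, the divergent member of the family, had 94 and 49 counts in WT and 105 and 180 counts in Helz-null libraries, or 0.490 and 0.391 FPKM against 0.831 and 0.845 FPKM. In the filterByExpr fit DKK3 rose (log2FC 0.90 ± 0.21, edgeR adjusted p = 7.5e-04), and its value is uncertain. Of its 11958 exon bases in GENCODE, 47.5% are shared with USP47 on the opposite strand. The counted width of DKK3 was only 2990 bases, so the share of the counted bases is not known. The counting of strand is not given in the sources used here, and USP47 itself had a log2FC of -0.046 ± 0.036. DKK2 had 32 to 85 counts and did not pass the threshold (log2FC 0.74 ± 0.29, edgeR adjusted p = 0.042), and DKK4 had at most 1.

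The promoter of DKK1 is shown because of 49 member promoters, from 40 genes, it alone held a core letter string of TCF/LEF binding, searched as CTTTGAT or CTTTGAA on either strand from 250 bases before to 50 bases after the start of transcription. The string was in 6.86% of 35116 promoters of the RefSeq table (GRCh38.p14), in 3.91% of the promoters of tested genes, and in 0 of the 10 promoters found for 7 of the called members. The match, in capitals, begins 95 bases before the start site, at chr10:52314031-52314330 on the plus strand. It is a match of letters, with no measurement of binding.
DKK1: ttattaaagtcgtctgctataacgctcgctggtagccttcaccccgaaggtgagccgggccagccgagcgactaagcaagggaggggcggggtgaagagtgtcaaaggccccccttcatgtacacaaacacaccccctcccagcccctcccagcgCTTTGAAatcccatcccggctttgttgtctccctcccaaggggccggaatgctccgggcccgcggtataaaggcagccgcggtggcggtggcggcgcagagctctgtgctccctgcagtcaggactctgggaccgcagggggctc

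Of the 10 Frizzled receptors, the seven-pass receptors for Wnt ligands, 9 were tested. Of these, 3 rose (33.3%, beside 13.9% of all tested genes) and none fell (beside 15.5%). In either direction the 33.3% stood beside 29.4% of all tested genes. FZD7, one of the 2 most abundant, stood at 7.93 and 8.15 FPKM in WT and at 9.67 and 9.05 FPKM in Helz-null cells (log2FC 0.22 ± 0.055, edgeR adjusted p = 0.0014). FZD2 stood at 4.28 and 4.40 FPKM in WT and at 5.23 and 5.13 FPKM in Helz-null cells (log2FC 0.25 ± 0.071, edgeR adjusted p = 0.0034). FZD4 stood at 2.55 and 2.56 FPKM in WT and at 2.98 and 3.08 FPKM in Helz-null cells (log2FC 0.25 ± 0.067, edgeR adjusted p = 0.0025). In each of the 3 both Helz-null values were above both WT values. All 3 calls were lost with DESeq2, without WT 1 and without Helz-null 1, those of FZD2 and FZD4 also without Helz-null 2, and that of FZD2 also after a correction for GC content. Over the alternatives with a test the log2FC ran from 0.17 to 0.27 for FZD7, from 0.23 to 0.29 for FZD2 and from 0.22 to 0.28 for FZD4, and after subtraction of the median of the 20 nearest tested genes it was 0.24, 0.21 and 0.28. FZD4 shares 18.9% of its exon bases with PRSS23 on the opposite strand, and PRSS23 rose too, from 2.61 and 2.46 FPKM to 3.26 and 3.55 FPKM (log2FC 0.43 ± 0.056), so that reads of the pair cannot be told apart without strand.

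FZD8, the other abundant Frizzled, stood at 8.11 and 9.003 FPKM in WT and at 8.03 and 8.04 FPKM in Helz-null cells and was not called (log2FC -0.085 ± 0.062). FZD3 and FZD6 were lower in both Helz-null libraries and narrowly missed the threshold. FZD3 stood at 2.06 and 2.22 FPKM in WT and at 1.83 and 1.87 FPKM in Helz-null cells (log2FC -0.20 ± 0.060, edgeR adjusted p = 0.0052). FZD6 stood at 6.72 and 6.95 FPKM in WT and at 6.17 and 5.79 FPKM in Helz-null cells (log2FC -0.20 ± 0.062, edgeR adjusted p = 0.010). FZD1, FZD5 and FZD9 had log2FC values from -0.10 to 0.15, and FZD10, outside the tested list, had 85 to 197 counts. By FPKM, both Helz-null values of FZD10 lay below both WT values. It was not called in the filterByExpr fit (log2FC -0.47 ± 0.17, edgeR adjusted p = 0.035). The summed level of the 10 Frizzled genes was 45.3 and 47.6 FPKM in WT and 47.6 and 47.7 FPKM in Helz-null libraries.

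The LRP co-receptors moved in opposite directions. LRP5 stood at 14.6 and 14.9 FPKM in WT and at 16.1 and 16.9 FPKM in Helz-null cells (log2FC 0.16 ± 0.038, edgeR adjusted p = 5.3e-04). LRP6 stood at 6.501 and 6.47 FPKM in WT and at 5.45 and 5.61 FPKM in Helz-null cells (log2FC -0.23 ± 0.043, edgeR adjusted p = 2.9e-05). The ratio of LRP5 to LRP6 by FPKM was thus 2.24 and 2.31 in WT and 2.95 and 3.004 in Helz-null libraries, and their sum was 21.1 and 21.4 FPKM against 21.5 and 22.5 FPKM. LRP5 lost its call without Helz-null 2 and after a correction for GC content, and its log2FC ran from 0.11 to 0.20 over the alternatives with a test, whereas that of LRP6 ran from -0.25 to -0.19. The 2 genes lie on chromosomes 11 and 12, and the median log2FC of their 20 nearest tested genes was 0.0045 and -0.039.

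**Figure D1:**
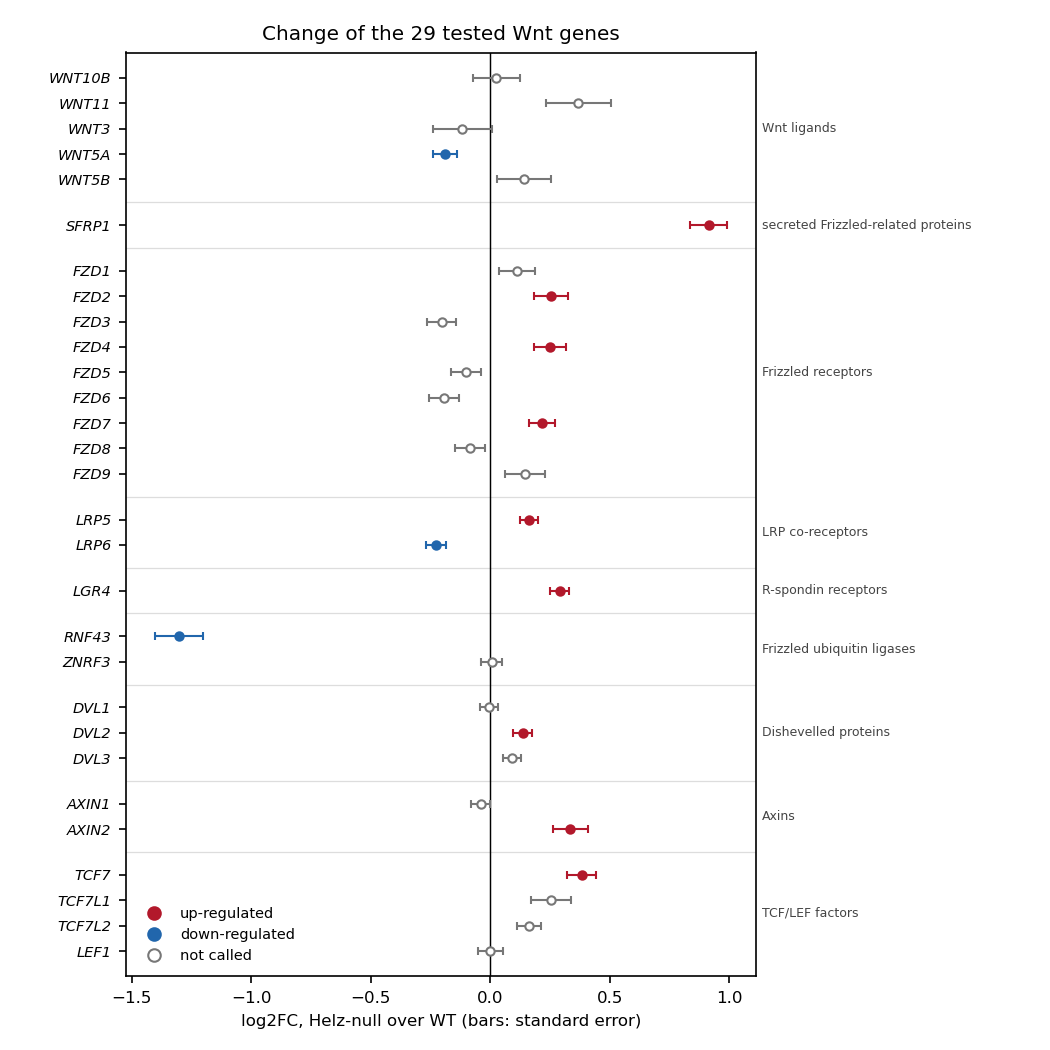
log2FC (Helz-null over WT) of the 29 tested members by role, with bars for the standard error, red for up-regulated, blue for down-regulated and open symbols for genes not called at an FDR under 0.005. RNF43 at -1.30 and SFRP1 at 0.91 stand apart from the other members, which lie between -0.23 and 0.38.

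The R-spondin receptors were represented mainly by LGR4, which rose. LGR4 (chr11:27387508-27494337, minus strand, GRCh37) stood at 12.2 and 12.5 FPKM in WT 1 and WT 2 and at 15.1 and 15.0 FPKM in Helz-null 1 and Helz-null 2. The gap between the groups was wide against the spread within them (log2FC 0.29 ± 0.039, edgeR adjusted p = 9.5e-08), and over the alternatives with a test the log2FC ran from 0.27 to 0.32. LGR5, known as a marker of intestinal stem cells, had 1.21 and 1.48 FPKM in WT and 1.51 and 1.29 FPKM in Helz-null cells, with overlap (log2FC 0.059 ± 0.12 in the filterByExpr fit), and LGR6 had at most 4 counts.

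RNF43 showed the largest change of all members, and its relative ZNRF3 showed none that could be detected. Both are transmembrane ubiquitin ligases that act on Frizzled receptors. RNF43 had 834 and 532 counts in WT 1 and WT 2 and 214 and 379 counts in Helz-null 1 and Helz-null 2. Per length it stood at 2.23 and 2.18 FPKM in WT and at 0.869 and 0.913 FPKM in Helz-null cells, or 2.20 ± 0.036 against 0.891 ± 0.031 FPKM (SD, n = 2). The Helz-null level was thus 40.4% of the WT level (log2FC -1.30 ± 0.10, edgeR adjusted p = 1.0e-13), and RNF43 was number 16 by log2FC among the 1701 down-regulated genes. ZNRF3 stood at 7.78 and 7.65 FPKM in WT and at 7.87 and 7.64 FPKM in Helz-null cells (log2FC 0.0050 ± 0.045). The ratio of RNF43 to ZNRF3 was 0.287 and 0.285 in WT and 0.110 and 0.119 in Helz-null libraries. Their summed level went from 10.01 and 9.83 FPKM to 8.74 and 8.55 FPKM.

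The fall of RNF43 was not shared by its surroundings. RNF43 lies at chr17:56431037-56494956 on the minus strand (GRCh37), and its 20 nearest tested genes had log2FC values from -0.13 to 0.38 with a median of 0.078. SUPT4H1, a tested neighbour of RNF43, had a log2FC of 0.079 ± 0.036. RNF43 was above 2 FPKM only in WT libraries, as were FZD3 and, in WT 2 alone, WNT3, so these members passed a filter on low values through the group in which they were higher. Of the exon bases of RNF43, 68.4% are also annotated to a readthrough gene on the same strand that is not in the count table, and 5.45% overlap BZRAP1-AS1 on the opposite strand, which had a log2FC of 0.092 ± 0.069 in the filterByExpr fit.

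The start sites of RNF43 and LGR4 are shown because these members of the R-spondin branch moved in opposite directions. RefSeq gives 2 promoters for RNF43 (GRCh38.p14), at chr17:58402672-58402971 and chr17:58417485-58417784 on the minus strand, and 1 for LGR4, at chr11:27472741-27473040 on the minus strand. The base at the start of transcription is in capitals. None held the TCF/LEF string, and their GC content was 43.7%, 54.3% and 61.3%, beside a median of 65.3% over the promoters of tested genes. The counts are per gene and do not tell which RNF43 start was used.
RNF43 promoter 1: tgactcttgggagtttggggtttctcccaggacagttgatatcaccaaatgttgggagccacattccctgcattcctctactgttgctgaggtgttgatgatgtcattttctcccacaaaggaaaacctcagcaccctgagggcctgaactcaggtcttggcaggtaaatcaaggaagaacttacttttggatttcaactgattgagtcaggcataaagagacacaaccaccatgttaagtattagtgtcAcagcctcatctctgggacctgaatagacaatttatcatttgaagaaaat
RNF43 promoter 2: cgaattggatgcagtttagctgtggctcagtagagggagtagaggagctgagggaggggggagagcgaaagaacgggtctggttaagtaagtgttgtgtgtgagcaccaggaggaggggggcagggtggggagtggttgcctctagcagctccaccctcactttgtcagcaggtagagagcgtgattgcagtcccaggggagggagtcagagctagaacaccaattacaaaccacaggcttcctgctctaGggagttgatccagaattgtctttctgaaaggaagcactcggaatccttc
LGR4 promoter: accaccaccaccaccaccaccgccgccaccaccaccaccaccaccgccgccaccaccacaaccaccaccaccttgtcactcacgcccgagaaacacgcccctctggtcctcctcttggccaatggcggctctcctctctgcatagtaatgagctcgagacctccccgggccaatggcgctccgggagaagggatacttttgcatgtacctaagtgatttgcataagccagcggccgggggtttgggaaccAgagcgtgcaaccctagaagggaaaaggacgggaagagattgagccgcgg

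Inside the cell, the Dishevelled genes DVL1 and DVL2 were the most abundant members by mean FPKM. These scaffold proteins pass the signal from Frizzled to Axin. DVL1, the highest, stood at 32.4 and 33.9 FPKM in WT and at 32.9 and 33.1 FPKM in Helz-null cells (log2FC -0.0056 ± 0.036). DVL2 stood at 23.1 and 23.4 FPKM in WT and at 25.6 and 25.5 FPKM in Helz-null cells (log2FC 0.14 ± 0.039, edgeR adjusted p = 0.0043), and lost its call in 7 of 16 alternatives, among them those without WT 1, without Helz-null 1 and without Helz-null 2, with log2FC values from 0.099 to 0.17 over the alternatives with a test. Of the 20 nearest tested genes of DVL2, 5 had a log2FC below 0, with a median of 0.076 over all 20, and after subtraction of that median the DVL2 value was 0.059. Their part in the difference was not tested. DVL3, at 16.7 and 15.9 FPKM in WT and 17.4 and 17.4 FPKM in Helz-null cells, was not called (log2FC 0.090 ± 0.037).

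Of the Axin scaffolds of the destruction complex, AXIN2 was called and AXIN1 was not. AXIN2, itself a textbook target gene of beta-catenin, stood at 3.95 and 3.57 FPKM in WT and at 4.74 and 4.78 FPKM in Helz-null cells. Both Helz-null values were above both WT values (log2FC 0.33 ± 0.073, edgeR adjusted p = 2.5e-04), and the log2FC ran from 0.27 to 0.42 over the alternatives with a test. Of its exon bases, 25.3% are also annotated to another gene on the same strand that is not in the count table. AXIN2 (chr17:63524681-63557766, minus strand, GRCh37) lies on the same chromosome arm as HELZ, which is 1 of its 20 nearest tested genes, and the median log2FC of these genes was -0.0041. AXIN1, at 19.5 and 19.0 FPKM in WT and 19.3 and 18.2 FPKM in Helz-null cells, was not called (log2FC -0.041 ± 0.041).

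Among the 4 TCF/LEF factors, the DNA-binding partners of beta-catenin, TCF7 rose (25.0%, beside 13.9% of all tested genes) and none fell (beside 15.5%). In either direction the 25.0% stood beside 29.4% of all tested genes. TCF7 (chr5:133450372-133487556, plus strand, GRCh37) stood at 5.46 and 5.37 FPKM in WT 1 and WT 2 and at 7.33 and 6.84 FPKM in Helz-null 1 and Helz-null 2 (log2FC 0.38 ± 0.061, edgeR adjusted p = 2.6e-06). TCF7L2 stood at 9.04 and 8.78 FPKM in WT and at 9.87 and 10.1 FPKM in Helz-null cells and missed the threshold (log2FC 0.16 ± 0.050, edgeR adjusted p = 0.0083). TCF7L2 was called with library totals only (log2FC 0.19) and with upper quartile scaling (log2FC 0.17). TCF7L1 stood at 4.496 and 4.38 FPKM in WT and at 4.84 and 5.66 FPKM in Helz-null cells and missed the threshold too (log2FC 0.25 ± 0.083, edgeR adjusted p = 0.012). LEF1 overlapped between the groups, at 8.60 and 9.07 FPKM in WT and 9.18 and 8.52 FPKM in Helz-null cells (log2FC 0.00061 ± 0.054). The summed level of the 4 factors was 27.6 and 27.6 FPKM in WT and 31.2 and 31.1 FPKM in Helz-null libraries.

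TCF7 is transcribed from more than 1 start site, and the protein from the downstream start is known to lack the beta-catenin-binding end. The 2 promoters in RefSeq (GRCh38.p14), at chr5:134115363-134115662 and chr5:134123368-134123667 on the plus strand, are shown for that reason, with the base at the start of transcription in capitals. The counts are per gene and do not separate them. They held 25 and 3 CpG dinucleotides, and neither held the TCF/LEF string.
TCF7 promoter 1: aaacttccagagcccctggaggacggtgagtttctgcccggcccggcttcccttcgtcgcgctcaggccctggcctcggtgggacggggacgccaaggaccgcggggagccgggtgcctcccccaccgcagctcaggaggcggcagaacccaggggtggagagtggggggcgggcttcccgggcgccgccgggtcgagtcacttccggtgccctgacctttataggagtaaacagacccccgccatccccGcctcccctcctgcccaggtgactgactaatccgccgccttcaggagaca
TCF7 promoter 2: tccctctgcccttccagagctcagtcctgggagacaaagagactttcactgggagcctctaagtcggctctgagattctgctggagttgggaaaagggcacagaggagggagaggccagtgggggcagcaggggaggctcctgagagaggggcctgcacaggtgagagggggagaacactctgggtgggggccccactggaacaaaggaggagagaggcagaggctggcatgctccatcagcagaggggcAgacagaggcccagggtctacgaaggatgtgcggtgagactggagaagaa

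The rest of the pathway was read from 7 lists with 66 genes in the count table, of which 51 were tested. Up-regulated were 16 (31.4%, beside 13.9% of all tested genes) and down-regulated 6 (11.8%, beside 15.5%), and the median log2FC was 0.040. Of 13 transcriptional cofactors, 6 rose (46.2%) and 1 fell (7.69%). BCL9L, which links beta-catenin to Pygopus, rose from 2.47 and 2.48 FPKM to 3.70 and 3.71 FPKM (log2FC 0.58 ± 0.063, edgeR adjusted p = 5.6e-10). In GENCODE its exons share 36.3% of their bases with CXCR5 on the opposite strand, which had at most 0.0361 FPKM. TLE2, a Groucho co-repressor, rose from 2.39 and 2.28 FPKM to 3.36 and 3.45 FPKM (log2FC 0.54 ± 0.10), and TLE3 fell from 22.5 and 23.2 FPKM to 18.0 and 17.4 FPKM (log2FC -0.37 ± 0.034). The 20 nearest tested genes of TLE3 had a median log2FC of -0.46, and after subtraction of that median the TLE3 value was 0.092, with the direction turned. Their part in its fall was not tested. The relatives TLE1 (log2FC 0.42 ± 0.036) and TLE4 (log2FC 0.22 ± 0.034) rose.

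Of 16 tested genes of beta-catenin and its destruction complex, 2 rose and 2 fell, and these 25.0% are near the 29.4% called over all tested genes. CTNNB1, the gene of beta-catenin, stood at 119.1 and 118.6 FPKM in WT and at 107.4 and 103.7 FPKM in Helz-null cells (log2FC -0.17 ± 0.028). Its 20 nearest tested genes had a median log2FC of -0.30, and after subtraction of that median the CTNNB1 value was 0.13, with the direction turned. Their part in the difference was not tested. RNF146, a ubiquitin ligase that promotes Axin turnover, fell (log2FC -0.24 ± 0.056), although the call was lost without WT 1 (-0.20), without Helz-null 2 (-0.22) and with DESeq2, and the kinases GSK3A (log2FC 0.19 ± 0.032) and CSNK1D (log2FC 0.17 ± 0.031) rose. After subtraction of the median of its 20 nearest tested genes, 0.072, the GSK3A value was 0.12. APC (log2FC 0.040 ± 0.044), GSK3B (log2FC 0.011 ± 0.039) and CSNK1A1 (log2FC -0.097 ± 0.031, edgeR adjusted p = 0.0092) were not called.

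At the membrane and outside the cell, the Dickkopf receptor KREMEN1 (log2FC 0.27 ± 0.040) and the Wnt inhibitor TPBG (log2FC 0.32 ± 0.066) were the only 2 tested genes of 8 further antagonists, and both rose, beside 13.9% of all tested genes. Of 4 tested genes for ligand secretion and WNT7 reception, ADGRA2, a WNT7 co-receptor, rose from 3.003 and 3.42 FPKM to 4.95 and 4.69 FPKM (log2FC 0.59 ± 0.067), whereas the acyltransferase PORCN (log2FC -0.11 ± 0.10) and the ligand carrier WLS (log2FC 0.029 ± 0.034) were not called. Exons of ADGRA2 share 23% of their bases with BRF2 on the opposite strand, which was not called (log2FC -0.13 ± 0.070). The alternative receptors ROR1 and ROR2, kinase-like receptors of WNT5A, had log2FC values of 0.30 ± 0.086 (edgeR adjusted p = 0.0048) and -0.38 ± 0.097 (edgeR adjusted p = 0.0015). ROR1 was above 2 FPKM only in Helz-null 2, so it passed a filter on low values through the group in which it was higher, and its call was lost with filterByExpr. RYK and PTK7 were not called. Of 9 tested planar cell polarity genes, 4 rose (44.4%, beside 13.9% of all tested genes) and 1 fell (11.1%, beside 15.5%), among them DAAM2 (log2FC 0.39 ± 0.061), VANGL2 (log2FC 0.22 ± 0.042) and VANGL1 (log2FC -0.16 ± 0.043). The calls of ROR1, ROR2 and VANGL1 were lost with DESeq2 and without single libraries. Without 1 library the log2FC ran from 0.26 to 0.33 for ROR1, which lost its call in every such fit, from -0.44 to -0.33 for ROR2, which lost it without WT 1 and without Helz-null 1, and from -0.22 to -0.11 for VANGL1, which kept it only without WT 1.

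Target genes did not move one way. Beside AXIN2, which rose, CCND1, the gene of cyclin D1, fell from 16.0 and 15.9 FPKM to 12.7 and 12.7 FPKM (log2FC -0.33 ± 0.042), and MYC (log2FC -0.089 ± 0.037) and NKD2 (log2FC 0.21 ± 0.10) were not called. NKD1, a Dishevelled-binding antagonist outside the tested list, stood at 1.21 and 1.19 FPKM in WT and at 1.58 and 1.58 FPKM in Helz-null cells and was called in the filterByExpr fit (log2FC 0.40 ± 0.082). SP5 and ASCL2 were below 0.1 FPKM in every library. In that fit, 12 of 45 members were called (26.7%, beside 21.4% of all genes): DKK3 was added and DVL2 was lost.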

How the data were processed

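The series holds RNA-Seq of HEK293T cells, with 2 WT and 2 Helz-null libraries. According to the methods, the authors filtered out reads of ribosomal RNA (Bowtie2), aligned the read pairs to hg19 (TopHat2) and obtained a count for each gene (QuasR), and these deposited counts carry no normalization. Versions, gene annotation and the use of strand are not given in the sources used here. A second deposited file holds the edgeR comparison made by the authors for genes selected by FPKM, as a log2FC, a mean log2 CPM and a p-value with its FDR. Only its 10978 gene names were used. The deposited gene width, in bases, gave FPKM.

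Counts of these genes, at least 97.8% of each library, were fitted with edgeR 4.0.16 in R 4.3.3 (quasi-likelihood test after TMM scaling, without covariates). The p-values were adjusted by Benjamini-Hochberg over all tested genes, and an FDR under 0.005 made a call. The standard error came from the log2FC and the F statistic. With 2 libraries a group, the p-values rest on a spread shared across genes. DESeq2 1.42.0 was an alternative. Members outside the tested list were read from the same fit over genes kept by filterByExpr. Positions and exon overlaps came from GENCODE on GRCh37 (10379 tested genes matched by symbol, 517 by an older symbol, 82 not), and promoters from RefSeq on GRCh38.p14, which were matched by symbol for 40 members. Shares of exon bases refer to all exons in GENCODE, whose summed length can differ from the counted width. Floors cover counting error only, whereas the standard errors and SDs also hold the spread between libraries. The steps were tested on simulated data.

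The members and lists were chosen with earlier results of these data known. Named are HELZ, every called member, the most abundant uncalled member of each role, members outside the tested list with at least 10 counts in a library, and in each further list CTNNB1, APC, GSK3B, CSNK1A1, WLS, PORCN and up to 2 called genes in each direction. The other members, NKD1, NKD2, MYC, SP5, ASCL2, RYK, PTK7, TLE1 and TLE4 were named after their values were seen.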

Additional observations from a re-analysis of the deposited data

How the results depend on the processing

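Each value was recomputed under up to 17 other settings, which gave 789 values. Of these, 695 were scored as kept, 43 lost a call, 5 gained one, 16 changed sign and 30 moved otherwise. Kept means the same direction and side of the threshold or, where no call applied, a value within the replicate spread. A count of calls was kept if it stayed within a fixed ratio to its count in the main fit. The log2FC of HELZ was called throughout. With 9 up- and 3 down-regulated members as the reference, DESeq2 called 5 up, and of the further Wnt genes 3 rather than 6 down. The fit over all genes with at least 1 count called 5 members down, adding FZD3 and WNT3A, as did an FDR under 0.05, adding FZD3 and FZD6, which also called 13 up, adding WNT11, TCF7L1, TCF7L2 and DVL3. Leaving out 1 library, where the lone library of a group is assumed to vary like the others, gave 5 to 9 members up and 2 to 4 down. The median log2FC of the tested members, 0.11, was 0.15 with library totals only, 0.13 with upper quartile scaling, 0.045 with filterByExpr, 0.052 with all genes with at least 1 count, 0.14 with FPKM above 2 in every library, 0.069 with a correction for GC content, chosen after seeing the data, and 0.062 to 0.13 without 1 library. Library totals only called 2123 genes up and 1317 down, beside 1524 and 1701.

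Changes of sign concerned WNT5A (0.10), CTNNB1 (0.13) and TLE3 (0.092) after subtraction of the median of the 20 nearest tested genes, and otherwise genes that were not called. These were DVL1 (0.028 with library totals only, 0.0086 with upper quartile scaling), WNT10B (-0.0053) and ZNRF3 (-0.0073) with the GC correction, and, without 1 library, APC (-0.012 to 0.098), AXIN1 (-0.079 to 0.0039), DVL1 (-0.039 to 0.027), GSK3B (-0.018 to 0.035), PORCN (-0.21 to 0.033), WLS (-0.026 to 0.083), WNT10B (-0.013 to 0.076) and ZNRF3 (-0.014 to 0.028). After subtraction of the median of the 20 nearest tested genes, a change of sign was scored for called genes only. ZNRF3, not called, turned to -0.060 there and is not among the 16. The cause was not tested. RNF43 had no value where FPKM above 2 was asked of every library.

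With the replicate number as a block, 9 members were up and 4 down, FZD3 being added. Differences between replicates correlated by 0.037 between the groups. This value cannot tell whether libraries with the same number were handled together, which the sources used here do not state.

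Depth limits the low members: 8 of 57 had fewer than 10 counts in every library.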
